A study of Homo sapiens with 8 samples.

Results

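The comparison described here sets MHCC-97H cells that stably express Flag-tagged OGT against MHCC-97H control cells, and it uses 4 of the 8 RNA-seq libraries of the series, 2 in each group. MHCC-97H is a human hepatocellular carcinoma cell line of high metastatic potential. All cells were grown in DMEM with fetal calf serum. The Flag-OGT cells carry wild-type, full-length human OGT with a C-terminal 3 × Flag tag on a lentiviral vector that also encodes luciferase and G418 resistance, and stable transfectants were selected with neomycin. The labels give the controls no genotype and do not say if they hold an empty vector. The labels do not say whether the 2 libraries of a group came from separate cultures or clones, so every p-value below reflects spread between libraries that may be technical alone. The 4 samples were chosen by their labels alone, and genes were kept where the mean level over the 4 libraries was at least 0.5 FPKM (fragments per kilobase of transcript, scaled to the number of mapped fragments). This left 13203 genes of 18902.

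OGT is the enzyme that attaches a single N-acetylglucosamine sugar to serines and threonines of proteins in the nucleus and cytosol, and OGA removes it. The sugar donor, UDP-GlcNAc, is made by the hexosamine pathway, whose first enzymes are GFPT1 and GFPT2. OGT modifies transcription factors and chromatin proteins, HCFC1 among them, and the series concerns OGT on chromatin together with the zinc finger protein ZNF263. Liver cells owe much of their character to a circuit of transcription factors that includes HNF4A and the FOXA proteins, and liver tumours keep or lose that circuit to different degrees.

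OGT itself was at 32.5 and 34.2 FPKM in the control libraries and at 59.0 and 58.4 FPKM in the Flag-OGT libraries. The groups did not overlap, and the difference of 0.80 ± 0.06 (SE) on the log2(FPKM + 1) scale passed the test (limma, Benjamini-Hochberg adjusted p = 2.7e-07). On the linear scale the Flag-OGT mean was 1.76 times the control mean. In these values any transcripts of the transgene cannot be told apart from those of the cell's own gene. ZNF263 was not called: the controls stood at 13.7 and 15.4 FPKM and the Flag-OGT libraries at 15.3 and 14.3 FPKM, with a 95% interval of the log2 difference from -0.13 to 0.19 (adjusted p = 0.745). With median-of-ratios scaling, described below, ZNF263 was called lower, by a log2 change of -0.17 (adjusted p = 0.0411).

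The Flag-OGT libraries went against the liver label more than the controls did. Of 20 hepatocyte marker genes with values, 11 passed the level filter, and 9 of those were lower and 2 higher with Flag-OGT. Their summed level was 134 and 137 FPKM in the controls against 12.02 and 11.97 FPKM with Flag-OGT. ALB, serum albumin, was already low in the controls, at 1.78 and 1.95 FPKM, and stood at 0.06 and 0.02 FPKM with Flag-OGT. ITIH2, a plasma protein of liver origin, fell from 76.6 and 79.2 FPKM to 0.05 and 0.08 FPKM, and APOH fell from 25.3 and 26.7 FPKM to 0.08 and 0.08 FPKM. CPS1, the first enzyme of the urea cycle, was the exception of size: it was at 0 and 0.01 FPKM without Flag-OGT and at 8.29 and 8.79 FPKM with it. The other 9 hepatocyte markers, APOA1, APOA2, APOB and APOC3 among them, stayed under 1 FPKM in all 4 libraries.

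Markers of other cell types moved as well. Cholangiocyte markers summed to 600 and 551 FPKM in the controls and to 12.96 and 12.54 FPKM with Flag-OGT, led by KRT19 at 363 and 316 FPKM against 0.17 and 0.20 FPKM. Of 6 tested of 8, 4 were lower and 1 higher. The riser was SOX9, from 2.39 and 2.60 FPKM to 3.34 and 3.33 FPKM. CD24 was not called, at 1.67 and 1.38 FPKM against 1.36 and 1.62 FPKM. EPCAM and CFTR stayed at or under 0.21 FPKM in all 4 libraries. Leukocyte markers fell from 82.5 and 80.3 FPKM to 3.98 and 3.62 FPKM, almost all of it CD68, while CD3E was at 0 in all 4 libraries. Endothelial markers fell from 33.8 and 33.6 FPKM to 0.95 and 0.87 FPKM, and most of the control sum was ESAM, at 26.6 and 26.5 FPKM. Only 3 of the 8 were tested, and the other 5, VWF and CDH5 among them, stayed at or under 0.21 FPKM in all 4 libraries. Adrenal cortex markers fell from 46.8 and 51.7 FPKM to 0.98 and 1.40 FPKM (nearly all NR0B1). Kidney epithelium markers summed to 7.30 and 8.26 FPKM against 4.10 and 4.30 FPKM and went both ways: CDH6 fell from 4.26 and 4.74 FPKM to 0.08 and 0.11 FPKM and PAX8 from 1.82 and 2.08 FPKM to 0.01 and 0 FPKM, while PAX2 rose from 0 and 0.01 FPKM to 2.97 and 2.99 FPKM. Fibroblast and stellate cell markers summed to 9.09 and 12.2 FPKM in the controls and to 20.7 and 21.1 FPKM with Flag-OGT, and the members went both ways. LUM, lumican, which made up most of the control sum, fell from 8.48 and 11.52 FPKM to 0.02 and 0.05 FPKM, while ACTA2, at 0 in both controls, made up most of the Flag-OGT sum (15.16 and 16.01 FPKM), and COL1A2 was at 0 there. Neuronal markers went from 173 and 147 FPKM, nearly all TUBB3, to 23.8 and 24.5 FPKM, with NEFL at 9.46 and 9.70 FPKM where the controls had 0 and 0.01 FPKM. Pluripotent and germ cell markers summed to 3.25 and 3.47 FPKM against 9.04 and 9.32 FPKM, and the gain was LIN28B, from 0 in both controls to 5.16 and 5.13 FPKM. In bulk RNA, fewer cells of a type and less RNA per cell cannot be told apart. Whether the libraries labelled Flag-OGT hold RNA of the labelled line was not tested. Rises and falls with Flag-OGT below are differences between libraries as labelled, from which a change of cell identity cannot be told apart.

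The libraries of a group lay close together. Across the tested genes, log2 levels correlated at 0.997 between the 2 controls and at 0.999 between the 2 Flag-OGT libraries, and at 0.710 to 0.716 between control and Flag-OGT libraries. The controls of MHCC-97H correlated at 0.959 to 0.965 with those of MHCC-97L, a related line of low metastatic potential, and the Flag-OGT libraries of the 2 lines at 0.958 to 0.959 with each other. The libraries labelled Flag-OGT thus resembled those of the other line more than the controls of their own line. These are correlations across genes, which are not independent replicates. The low values of short transcripts lay on steps that put each of the 4 libraries near 20000000 fragments, so 3 fragments on a transcript of 2 kb would read about 0.076 FPKM.

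Most genes differed. By limma with an adjusted p under 0.05, 6506 genes (49.3%) were higher and 4844 genes (36.7%) were lower with Flag-OGT. Because so many genes passed, the lists below are also counted by a stricter rule, called and at least 2-fold, by which 3068 genes (23.2%) were higher and 2178 genes (16.5%) were lower. The falls reached further than the rises: 433 genes fell and 423 rose by at least 8-fold on the log2(FPKM + 1) scale, 127 fell and 57 rose by at least 32-fold, and 38 fell and 8 rose by at least 128-fold. The median gene was 0.17 log2 units higher with Flag-OGT, and list medians below are to be read against that value. List counts of genes higher and lower are to be read against 49.3% and 36.7%. List counts of genes at least 2-fold higher and lower are to be read against 23.2% and 16.5%. A gene near 0 in one group passed the level filter through the other group and so had to differ, and the list counts below therefore describe the tested members alone. A median-of-ratios scaling divides each library by its median ratio to a common reference. With it the median gene moved by 0.00, a value near 0 that the scaling itself sets.

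**Figure D1:**
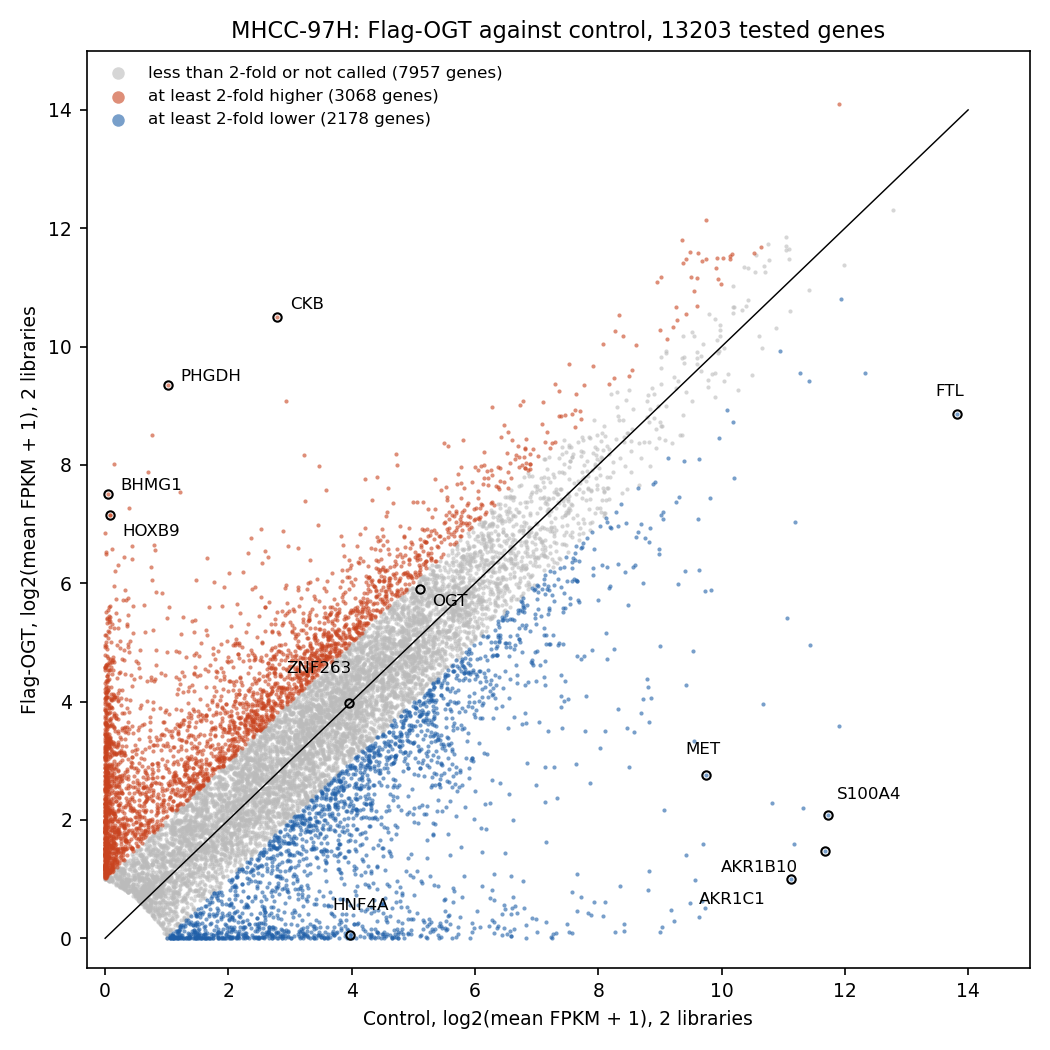
Each point is 1 of 13203 tested genes, at its mean level in the 2 control libraries (x axis) and in the 2 Flag-OGT libraries (y axis), both as log2(FPKM + 1), with the diagonal marking equal levels. Red points are the 3068 genes at least 2-fold higher and blue points the 2178 genes at least 2-fold lower; OGT lies just above the diagonal and ZNF263 on it.

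The largest rise was in PHGDH, the enzyme that starts serine synthesis from a glycolytic intermediate. It was at 0.98 and 1.06 FPKM without Flag-OGT and at 651 and 645 FPKM with it, a log2 change of 8.33 ± 0.05 (SE; adjusted p = 1.1e-13) and a 635-fold ratio of the means. CKB, the brain-type creatine kinase, rose from 5.85 and 6.02 FPKM to 1461 and 1433 FPKM, to the highest level among the 12 largest rises. Those 12 also held DMKN, a secreted protein of skin, at 0 and 0.21 FPKM against 255 and 257 FPKM, and YBX3, a cold-shock domain RNA-binding protein, at 0.66 and 0.72 FPKM against 363 and 365 FPKM. CITED1, a transcriptional co-regulator, was at 0.57 and 0.68 FPKM without Flag-OGT and at 241 and 227 FPKM with it. PYCR1, which makes proline, was at 0.09 and 0.53 FPKM against 154 and 153 FPKM. BHMG1, HOXB9, IRS4, CKMT1B, MTHFD2 and AMOT completed the 12 and are given below.

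The largest fall was in AKR1B10, an aldo-keto reductase of liver tumours and gut, from 3061 and 3490 FPKM to 1.37 and 2.17 FPKM, a log2 change of -10.22 ± 0.12 (SE; adjusted p = 9e-13). CAV1, the coat protein of caveolae, fell from 2490 and 2636 FPKM to 3.58 and 3.59 FPKM. GPX2, a glutathione peroxidase of epithelia, fell from 830 and 808 FPKM to 0.60 and 0.51 FPKM. PTGR1, a reductase of lipid aldehydes and prostaglandins, was at 551 and 645 FPKM against 0.36 and 0.09 FPKM. AGR2, a disulfide isomerase of secretory epithelia, was at 474 and 544 FPKM against 0.15 and 0 FPKM, and CES1, the main liver carboxylesterase, at 506 and 535 FPKM against 0.23 and 0.06 FPKM. These 24 genes were taken from called genes whose 2 control and 2 Flag-OGT libraries did not overlap. Their lack of overlap is thus part of the choice.

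**Figure D2:**
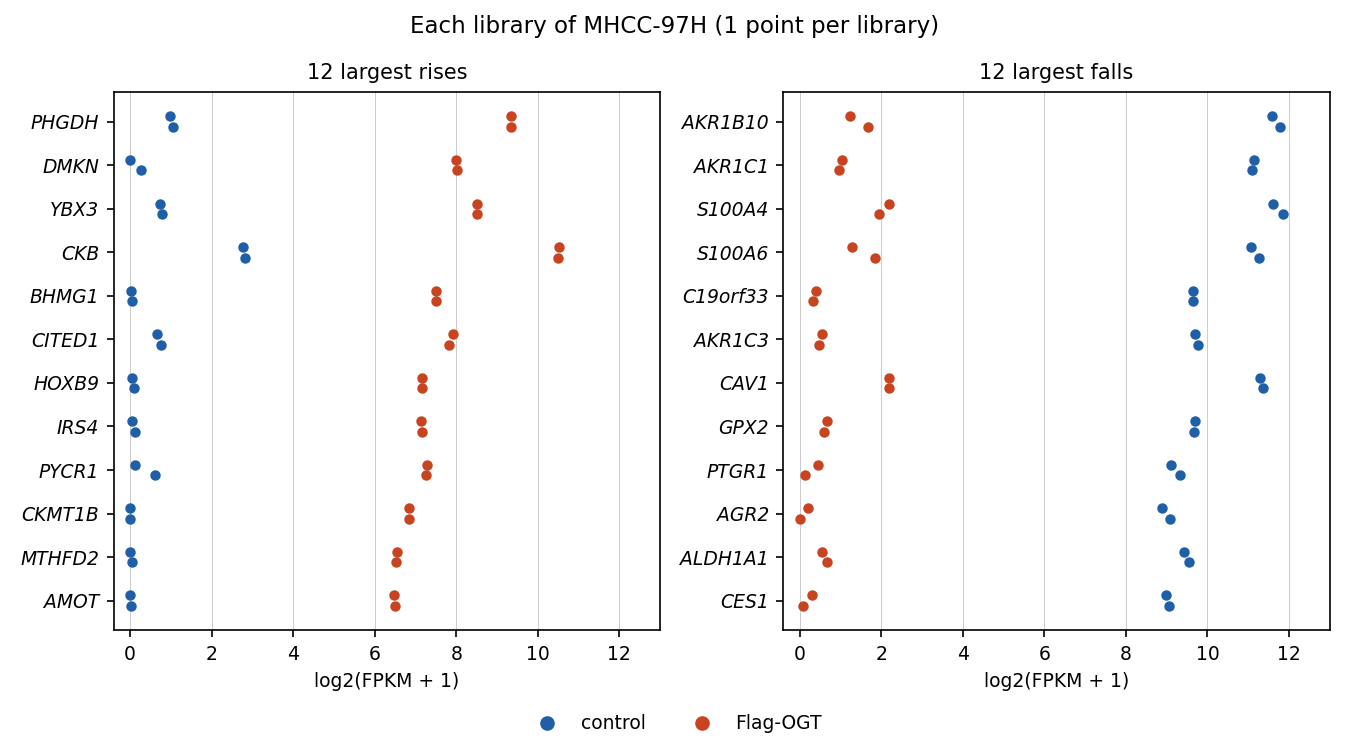
The 12 largest rises (left) and 12 largest falls (right) in MHCC-97H, with 1 point per library on a log2(FPKM + 1) axis, controls in blue and Flag-OGT in red. The 2 points of a group lie close together in every gene; CKB ends highest among the rises, while AKR1B10, S100A4, S100A6, AKR1C1 and CAV1 start highest among the falls.

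Promoters of genes at both ends are shown as examples, picked because they differ in base composition and in the motifs they hold. They do not stand for the other genes of their end. Each line gives the 250 bases upstream of the start of the RefSeq gene on GRCh38.p14, 5′ to 3′ on the strand of the gene, with motif matches in capitals. In PHGDH (chr1:119711684-119711933, plus strand) the capitals mark 3 overlapping matches of GGAGGAGGA, the repeat at the core of the known ZNF263 motif. In GPX2 (chr14:64942746-64942995, minus strand) they mark a match of TGACNNNGC, the core of the antioxidant response element, which reads on the opposite strand. CKB (chr14:103522831-103523080, minus strand) and AKR1C1 (chr10:4963165-4963414, plus strand) held no match of the 5 motifs searched.
PHGDH: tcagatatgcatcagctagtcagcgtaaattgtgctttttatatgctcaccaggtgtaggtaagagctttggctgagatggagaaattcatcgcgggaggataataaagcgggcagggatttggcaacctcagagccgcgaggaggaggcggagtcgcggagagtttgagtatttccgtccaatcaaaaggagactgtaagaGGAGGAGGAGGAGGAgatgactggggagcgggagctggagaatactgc
CKB: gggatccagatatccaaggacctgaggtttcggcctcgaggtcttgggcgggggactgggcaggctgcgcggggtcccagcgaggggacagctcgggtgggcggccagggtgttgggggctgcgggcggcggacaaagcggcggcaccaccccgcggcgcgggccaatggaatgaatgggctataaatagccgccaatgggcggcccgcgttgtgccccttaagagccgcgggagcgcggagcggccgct
GPX2: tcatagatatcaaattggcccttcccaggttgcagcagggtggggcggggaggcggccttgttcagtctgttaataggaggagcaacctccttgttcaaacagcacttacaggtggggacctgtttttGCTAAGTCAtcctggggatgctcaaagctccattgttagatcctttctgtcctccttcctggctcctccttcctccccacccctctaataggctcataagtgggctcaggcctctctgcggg
AKR1C1: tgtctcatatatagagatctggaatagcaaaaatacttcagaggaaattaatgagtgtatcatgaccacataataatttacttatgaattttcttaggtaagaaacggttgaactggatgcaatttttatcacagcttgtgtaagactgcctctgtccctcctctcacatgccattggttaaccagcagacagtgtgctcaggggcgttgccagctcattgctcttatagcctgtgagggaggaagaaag

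The CKB window held 27 CpG dinucleotides with 70.8% G and C, the PHGDH window 11 with 51.2%, the GPX2 window 3 with 54.0% and the AKR1C1 window 2 with 40.8%. Other windows went the other way: CKMT1B, a rise, had 44.8% G and C, and S100A6, a fall, had 70%. The median window had 66.4% among genes at least 2-fold higher and 64.4% among those at least 2-fold lower. The 5 motifs, searched on both strands, were GGAGGAGGA, TGACNNNGC, TGANTCA (the AP-1 site), CAAAGTCCA (an HNF4 direct repeat) and TGATGNAA (the amino acid response element core). GGAGGAGGA was found in 3.02% of all 27305 RefSeq promoter windows of this length and in 3.60% of the windows of tested genes. Of tested genes with a window it was found in 3.94% of those at least 2-fold higher, 4.89% of those at least 2-fold lower and 2.99% of those that changed by less than 0.5 log2 units. TGACNNNGC was in 11.03% of all windows and in 11.8% of those of tested genes. It was in 11.1% of the 2-fold higher genes, 12.7% of the 2-fold lower genes and 11.5% of the genes that changed little. BHMG1, a rise, held a match of it as GPX2 did. TGANTCA was in 6.60% of all windows and in 3.80% of those of tested genes. It was in 3.56% of the 2-fold higher genes, 6.70% of the 2-fold lower genes and 2.94% of the genes that changed little. These shares are descriptions of letters in a window, and 10597 of the 13203 tested genes had one.

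A group of genes went from background to clear expression or the reverse. The rule was at most 0.1 FPKM in both libraries of one group and at least 5 FPKM in both of the other. Of all 18902 genes, 276 were present with Flag-OGT alone and 149 were present in the controls alone. Of the 276, 62 were listed at 0 in both controls, and of the 149, 36 were listed at 0 in both Flag-OGT libraries. BHMG1, a helix-loop-helix protein of meiotic germ cells, had the highest level among the gained genes, at 181 and 180 FPKM against 0.02 and 0.04 FPKM. AMOT, a membrane-associated partner of YAP, was at 88.2 and 89.8 FPKM against 0 and 0.01 FPKM, and FYN, a Src-family kinase, at 48.7 and 47.9 FPKM against 0.06 FPKM in both controls. The genes present in the controls alone were led by TM4SF1, a surface protein of carcinomas, at 322 and 358 FPKM against 0.09 and 0.10 FPKM. KRT20, an intestinal keratin, was at 301 and 316 FPKM against 0.08 FPKM in both Flag-OGT libraries, and CEACAM6, a cell-surface adhesion protein, at 178 and 188 FPKM against 0.04 and 0.10 FPKM. SPP1, osteopontin, was at 151 and 155 FPKM against 0.03 and 0.06 FPKM, and OCIAD2 at 109 and 117 FPKM against 0 in both. Some genes that meet this rule are not reported here.

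Liver transcription factors were lower as a list. Of 25 tested of 31 with values, 17 were lower and 6 higher, 13 were at least 2-fold lower and 3 at least 2-fold higher, and the median change was -1.10. FOXA2, a pioneer factor of liver and gut endoderm, fell from 48.3 and 40.6 FPKM to 0.69 and 0.49 FPKM. HNF4A, the nuclear receptor at the centre of the hepatocyte circuit, fell from 14.6 and 14.6 FPKM to 0.03 and 0.04 FPKM. CREB3L3, a liver and gut factor that drives lipid metabolism genes, fell from 20.3 and 17.5 FPKM to 0.14 and 0.08 FPKM. Other members of the list rose. KLF15, a regulator of gluconeogenesis and amino acid breakdown, was listed at 0 in both controls, and at 7.72 and 7.09 FPKM in the Flag-OGT cells. GATA4 rose from 9.03 and 7.73 FPKM to 21.1 and 22.1 FPKM, and NR2F2 from 11.03 and 11.99 FPKM to 28.02 and 27.5 FPKM.

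Epithelial transcription and splicing factors moved further down. Of 14 tested of 23, 10 were lower and 3 higher, and the median change was -1.96. ELF3, an epithelium-specific ETS factor, fell from 83.4 and 78.9 FPKM to 0.09 and 0.17 FPKM. EHF, of the same family, went from 8.43 and 9.64 FPKM to 0 in both Flag-OGT libraries, and RBM47, an epithelial RNA-binding protein, from 15.9 and 15.5 FPKM to 0.63 and 0.68 FPKM. TFAP2A, an AP-2 factor of ectoderm and neural crest, went the other way, from 7.28 and 6.74 FPKM to 38.6 and 40.5 FPKM.

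HOX genes, which pattern the body axis and are arranged in 4 clusters, rose nearly throughout. Of 35 tested of 39, 33 were higher, none was lower and 2 (HOXA2 and HOXA3) were not called. Of the 33, 30 were at least 2-fold higher, and the median change was 2.71. The 4 that were not tested stayed at or under 0.20 FPKM in every library. HOXD genes were close to absent in the controls, summing to 0.17 and 0.22 FPKM over 9 genes, and summed to 131 and 136 FPKM with Flag-OGT. HOXC genes summed to 4.99 and 4.70 FPKM against 156 and 159 FPKM, HOXB genes to 25.7 and 23.6 FPKM against 303 and 304 FPKM, and HOXA genes to 33.9 and 30.0 FPKM against 132 and 130 FPKM. HOXB9 had the highest level, at 141 and 141 FPKM against 0.04 and 0.07 FPKM. HOXC4 was at 50.8 and 52.3 FPKM against 0.18 and 0.34 FPKM, and HOXD13 at 44.7 and 46.7 FPKM against 0.02 and 0.04 FPKM. Of the 39 HOX genes, 10 met the rule for genes present with Flag-OGT alone, as did 276 of all 18902 genes.

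**Figure D3:**
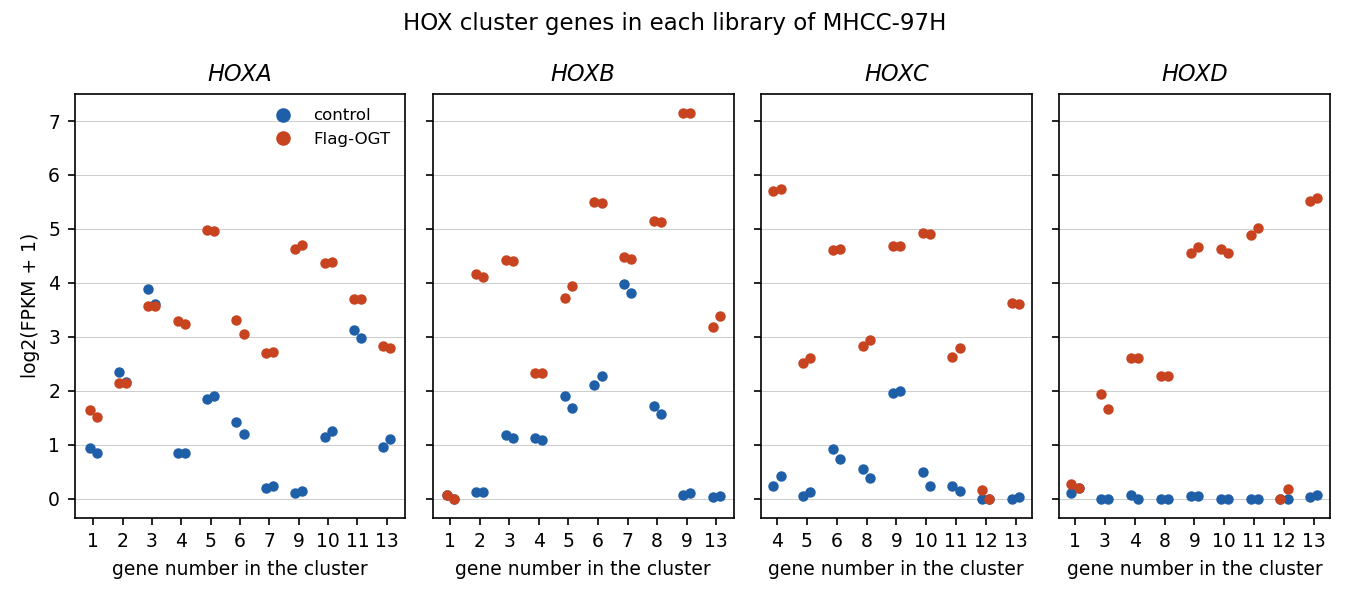
Levels of the HOX genes of the 4 clusters in each library of MHCC-97H as log2(FPKM + 1), ordered by gene number, with controls in blue and Flag-OGT in red and 1 point per library. The HOXD controls lie at or near 0 while HOXD13 reaches 44.7 and 46.7 FPKM with Flag-OGT, and in HOXA2 and HOXA3 the groups lie together.

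Developmental transcription factors outside the HOX clusters rose in most members. Of 42 tested of 55 with values, 35 were higher and 6 lower, 32 were at least 2-fold higher and 4 at least 2-fold lower, and the median change was 1.99. TBX1, a T-box factor of the pharyngeal region, was at 0.28 and 0.20 FPKM against 82.4 and 88.8 FPKM. NKX2-5, a homeobox factor of the heart, was at 0.29 and 0.21 FPKM against 57.5 and 58.6 FPKM, and DLX2, of forebrain and jaw, at 0.79 and 0.77 FPKM against 55.0 and 58.5 FPKM. SOX2, a factor of stem and neural progenitor cells, fell, from 26.7 and 24.8 FPKM to 4.68 and 5.03 FPKM, and OSR1 fell from 6.53 and 4.46 FPKM to 0.05 and 0.03 FPKM.

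Neuronal cytoskeleton and adhesion genes split. Of 30 tested of 41, 18 were higher and 11 lower, and 17 were at least 2-fold higher and 9 at least 2-fold lower (median 1.32). Tubulin genes moved both ways. TUBA4A fell from 147 and 136 FPKM to 1.90 and 2.26 FPKM and TUBB3 from 173 and 146 FPKM to 3.77 and 4.58 FPKM. TUBA1A, the main alpha-tubulin of young neurons, rose from 0.25 and 0.19 FPKM to 50.9 and 52.7 FPKM. DPYSL5, a protein of growing axons, was at 0.21 and 0.10 FPKM against 36.5 and 36.9 FPKM, and the synaptic vesicle protein SYP at 0.46 and 0.37 FPKM against 7.87 and 7.53 FPKM.

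Contractile genes that work with actin were mostly lower, 16 of 25 tested against 7 higher, with a median of -0.65. TPM2, a tropomyosin, fell from 370 and 335 FPKM to 10.8 and 10.7 FPKM. CNN2, a calponin, fell from 233 and 208 FPKM to 15.1 and 17.1 FPKM, and the light chain MYL9 from 6.78 and 6.54 FPKM to 0.05 and 0.15 FPKM. ACTA2, smooth muscle actin, was listed at 0 in both controls, and at 15.16 and 16.01 FPKM in the Flag-OGT cells, and cardiac troponin TNNI3 was at 0 and 0.06 FPKM against 6.63 and 6.33 FPKM.

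S100 proteins, small calcium-binding proteins that partner with annexins, showed the lowest median of the 37 lists, -5.88. Of 12 tested of 19, 10 were lower and 1 higher, and 9 were at least 2-fold lower. The list summed to 11502 and 12316 FPKM in the controls and to 239 and 238 FPKM with Flag-OGT. S100A4, tied to cell motility, fell from 3119 and 3681 FPKM to 3.59 and 2.86 FPKM. S100A6 fell from 2152 and 2447 FPKM to 1.45 and 2.59 FPKM, and S100A3 from 581 and 572 FPKM to 0.35 and 0.42 FPKM. The riser, S100PBP, is a protein that binds an S100 protein and is not itself one of the family, and it went from 3.52 and 4.19 FPKM to 13.7 and 13.8 FPKM.

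Annexins, which bind membranes in the presence of calcium, fell in 9 of 10 tested genes, 7 of them by at least 2-fold. ANXA2, the partner of S100A10, fell from 2119 and 2154 FPKM to 42.5 and 40.3 FPKM. ANXA1 fell from 200 and 255 FPKM to 0.20 and 0.48 FPKM, and ANXA10, an annexin of stomach, from 145 and 152 FPKM to 0.03 and 0 FPKM. ANXA6 was the exception, at 0.10 and 0.06 FPKM without Flag-OGT and at 94.0 and 94.3 FPKM with it. Among 27 tested tetraspanins and TM4SF proteins, 14 were lower and 11 higher (median -0.30). CD9 fell from 128 and 133 FPKM to 11.4 and 11.9 FPKM, and TM4SF18 from 24.1 and 25.4 FPKM to 0.01 FPKM in both Flag-OGT libraries. CD81, which partners with CD9 in many cells, rose from 50.4 and 42.6 FPKM to 314 and 319 FPKM.

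Detoxifying enzymes of the aldo-keto reductase family fell together. Of 12 tested of 13, 10 were lower and 2 higher, 9 were at least 2-fold lower, and the median was -2.47. AKR1C1 was at 2252 and 2194 FPKM against 1.05 and 0.95 FPKM, AKR1C3 at 827 and 873 FPKM against 0.46 and 0.38 FPKM, and AKR1C2 at 185 and 195 FPKM against 0.04 and 0.08 FPKM. The AKR1C genes are near-identical copies, so how fragments were shared among them is uncertain, but all lay near 0 with Flag-OGT. AKR7A2 and AKR1A1 rose, AKR7A2 from 22.6 and 18.98 FPKM to 67.0 and 64.4 FPKM.

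Of 15 tested aldehyde dehydrogenases, 8 were higher and 6 lower, near the 49.3% and 36.7% of all tested genes. ALDH1A1, a retinaldehyde dehydrogenase, fell from 686 and 747 FPKM to 0.46 and 0.58 FPKM, and ALDH3A1 from 477 and 423 FPKM to 1.03 and 1.36 FPKM. ALDH1A2, which also makes retinoic acid, rose from 0.24 and 0.18 FPKM to 25.6 and 25.0 FPKM. Among 26 tested cytochrome P450 genes of 47, 11 were lower and 13 higher, beside 36.7% and 49.3% of all tested genes. At least 2-fold lower were 10 and at least 2-fold higher 5, beside 16.5% and 23.2% of all tested genes. CYP27A1, which acts in bile acid synthesis, fell from 49.7 and 48.8 FPKM to 0.82 and 0.67 FPKM, and CYP4F11 from 35.0 and 36.4 FPKM to 0.02 FPKM in both. CYP26A1, which breaks down retinoic acid, was at 0 and 0.05 FPKM against 2.79 and 2.77 FPKM.

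Phase II enzymes, which conjugate drugs and metabolites, had 18 lower and 11 higher of 33 tested (median -0.29). Of the 47 with values, 6 met the rule for genes present in the controls alone, as did 149 of all 18902 genes. UGT1A10 went from 147 and 154 FPKM to 0 in both Flag-OGT libraries, GSTA1 from 57.3 and 61.7 FPKM to 0 in both, and UGT2B7 from 21.6 and 23.6 FPKM to 0.06 and 0 FPKM. UGT1A genes share their last exons, so their levels depend on how the authors' counting split them. Those among the 6, UGT1A10 included, are thus not independent of each other. GSTM2 rose from 0.17 and 0.08 FPKM to 51.0 and 53.1 FPKM. Efflux pumps of bile and drugs were among the steepest falls of 26 tested ABC transporters, of which 12 were lower and 11 higher (median -0.08). ABCC2 fell from 109 and 115 FPKM to 0.13 and 0.21 FPKM, ABCC3 from 54.7 and 51.7 FPKM to 0.36 and 0.21 FPKM, and ABCG2 from 39.2 and 42.9 FPKM to 0.81 and 0.88 FPKM.

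Iron handling genes were lower in 14 of 22 tested and higher in 5 (median -1.21). FTL, the ferritin light chain, was the most abundant of them, at 14764 and 14035 FPKM without Flag-OGT and at 456 and 468 FPKM with it. HMOX1, which breaks down heme, fell from 149 and 141 FPKM to 9.88 and 10.7 FPKM, and SLC40A1, the iron exporter ferroportin, from 19.2 and 20.1 FPKM to 0.30 and 0.45 FPKM. SLC39A8, a metal importer, rose from 1.87 and 2.34 FPKM to 11.4 and 12.4 FPKM.

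Enzymes of serine synthesis and the folate cycle, PHGDH among them, moved in both directions. Of 30 tested of 36, 18 were higher and 11 lower, where 49.3% and 36.7% of all tested genes were. At least 2-fold higher were 12 and at least 2-fold lower 3, beside 23.2% and 16.5% of all tested genes, and the median was 0.58. MTHFD2, the mitochondrial folate enzyme of embryonic and tumour tissue, was at 0 and 0.03 FPKM without Flag-OGT and at 93.0 and 90.4 FPKM with it. CBS, which joins homocysteine with serine, rose from 4.62 and 4.94 FPKM to 119 and 120 FPKM, and ALDH1L2, a mitochondrial folate enzyme, from 0.30 and 0.44 FPKM to 10.0 and 10.1 FPKM. BHMT2, a homocysteine methyltransferase, fell from 12.6 and 13.8 FPKM to 1.01 and 1.04 FPKM.

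Enzymes of arginine, proline and glutamine metabolism were higher in 15 of 23 tested and lower in 6, and 11 were at least 2-fold higher (median 0.97). ASS1, which makes argininosuccinate, rose from 1.38 and 1.26 FPKM to 185 and 184 FPKM. ASNS, asparagine synthetase, rose from 25.0 and 26.4 FPKM to 256 and 253 FPKM. ASL, which acts after ASS1, fell from 16.6 and 13.7 FPKM to 7.6 and 8.6 FPKM. Of 6 tested creatine genes, the 4 higher ones included CKB and both CKMT1 copies. CKMT1B was listed at 0 in both controls, and at 115 and 113 FPKM in the Flag-OGT cells, and CKMT1A at 0.07 and 0.14 FPKM against 58.4 and 62.8 FPKM; the copies are near-identical and the split between them is uncertain. GATM, which starts creatine synthesis, was low and fell from 0.96 and 1.36 FPKM to 0.02 FPKM, while SLC6A8, the creatine importer, fell from 112 and 106 FPKM to 51.6 and 53.8 FPKM.

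Glycolysis enzymes kept a median near that of all genes (0.09). Of 28 tested, 14 were higher and 12 lower, beside 49.3% and 36.7% of all tested genes. PKM, pyruvate kinase, fell from 2632 and 2305 FPKM to 756 and 749 FPKM, and SLC16A3, a lactate exporter, from 37.5 and 32.4 FPKM to 0.24 and 0.19 FPKM. HK2, a hexokinase, rose from 0.08 and 0.19 FPKM to 12.7 and 12.5 FPKM. Amino acid transporters were lower in 13 and higher in 12 of 25 tested, beside 36.7% and 49.3% of all tested genes. SLC7A11, the cystine importer, fell from 16.9 and 18.9 FPKM to 1.66 and 1.67 FPKM, and SLC1A3, a glutamate importer, rose from 0.02 FPKM in both controls to 8.12 and 7.47 FPKM. Cholesterol genes were lower in 17 and higher in 14 of 34 tested, and few moved by 2-fold. SREBF2, the transcription factor of the pathway, rose from 17.1 and 16.1 FPKM to 112 and 113 FPKM and its escort SCAP from 21.4 and 19.4 FPKM to 82.9 and 81.4 FPKM, while SCARB1, a receptor for high-density lipoprotein, fell from 163 and 146 FPKM to 51.3 and 51.0 FPKM.

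In the hexosamine pathway and O-GlcNAc cycle all 15 genes passed the filter, 5 were higher and 8 lower, and GNPNAT1 and SLC35A3 were not called (GNPNAT1 was called lower, by a log2 change of -0.23, with median-of-ratios scaling). GFPT1 fell from 17.8 and 19.3 FPKM to 4.24 and 3.49 FPKM while GFPT2 rose from 3.79 and 3.75 FPKM to 15.9 and 15.3 FPKM. PGM3, a step on the way to UDP-GlcNAc, fell by 0.46 on the log2 scale, and UAP1L1, a relative of the pyrophosphorylase UAP1, by 1.12. Among the genes of salvage, deacetylation and deamination, GNPDA2 fell by 0.97, NAGK by 0.80, AMDHD2 by 0.74 and GNPDA1 by 0.42 on the same scale. OGA (0.88), HCFC1 (0.93) and UAP1 (1.26) rose on the same scale. EOGT, which modifies secreted proteins, fell by 0.23 on the log2 scale (adjusted p = 0.0089), and this call was lost when control library 2 or Flag-OGT library 1 was left out (adjusted p = 0.0543 and 0.051).

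**Figure D4:**
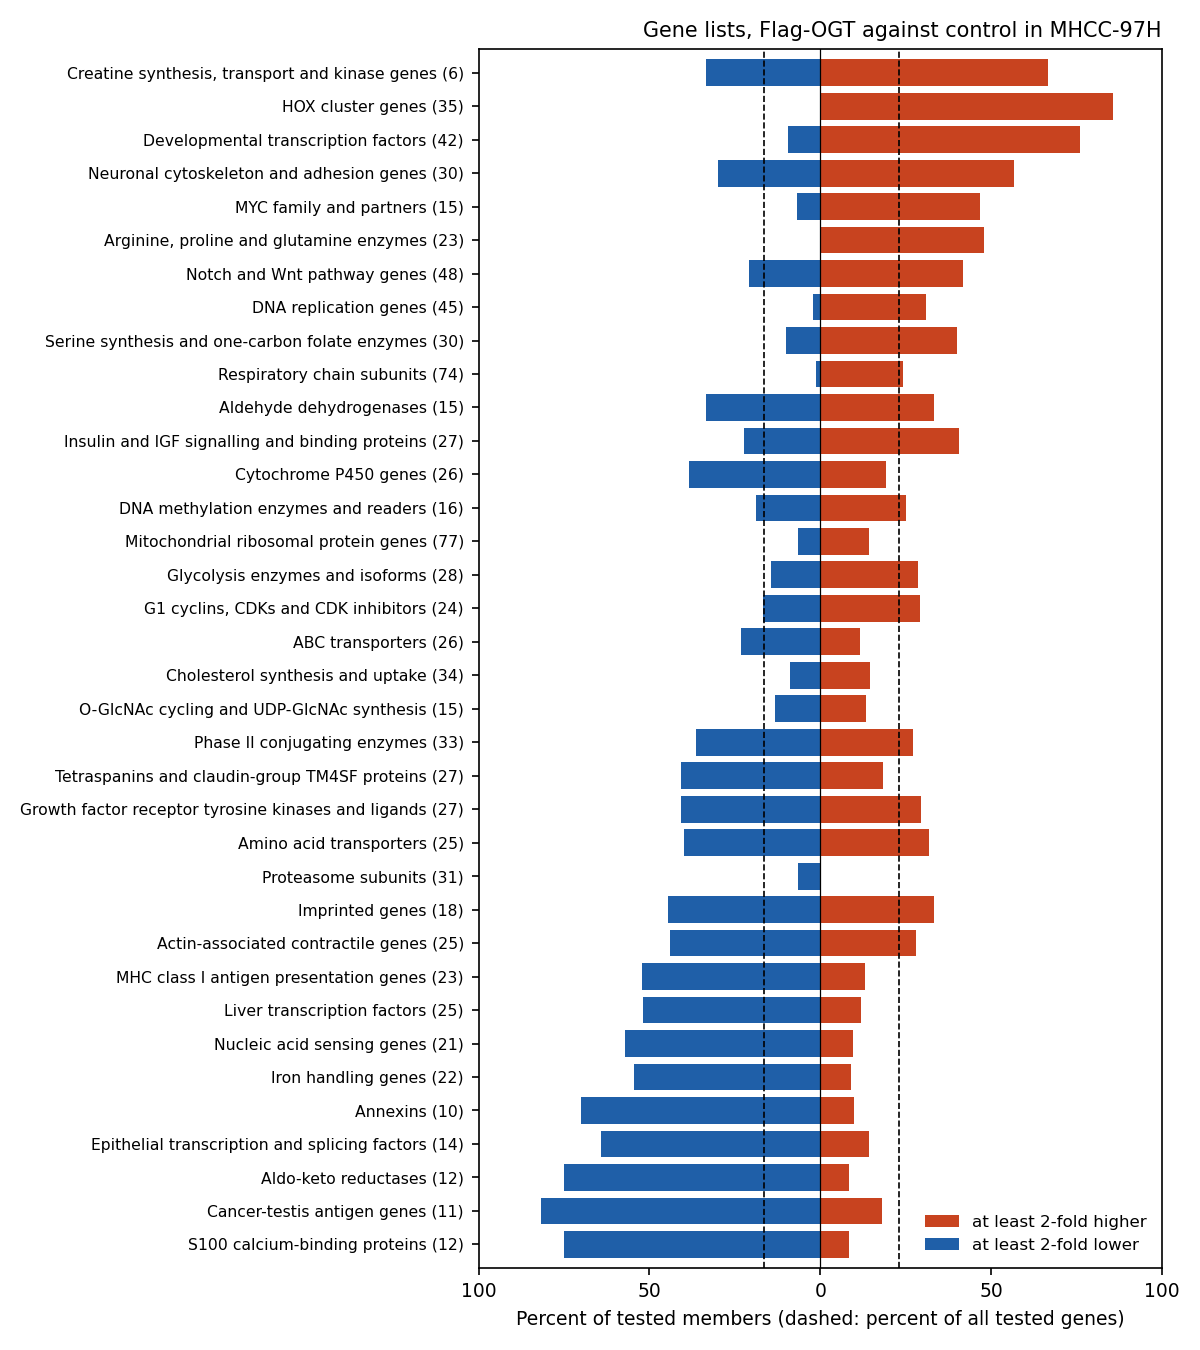
For gene lists ordered by median log2 change, the red bar gives the percent of tested members at least 2-fold higher and the blue bar the percent at least 2-fold lower with Flag-OGT in MHCC-97H, with the number of tested members in brackets. Dashed lines mark the percent among all tested genes, 23.2 higher and 16.5 lower; HOX genes, with 30 of 35 higher, and S100 proteins, with 9 of 12 lower, lie near the ends.

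Receptor tyrosine kinases and their ligands split, with 15 of 27 tested lower and 12 higher. MET, the receptor of hepatocyte growth factor, fell from 815 and 897 FPKM to 5.92 and 5.61 FPKM. AXL fell from 20.0 and 20.3 FPKM to 0.19 and 0.26 FPKM, and the EGF receptor ligand EREG from 22.9 and 26.8 FPKM to 0.05 and 0.16 FPKM. The fibroblast growth factor receptors rose, FGFR1 from 0.65 and 0.78 FPKM to 35.1 and 36.9 FPKM, FGFR2 from 0.27 and 0.28 FPKM to 10.84 and 10.95 FPKM and FGFR3 from 3.27 and 2.97 FPKM to 37.3 and 38.1 FPKM. Of 27 tested insulin and IGF genes, 15 were higher and 12 lower, beside 49.3% and 36.7% of all tested genes. IRS4, an insulin receptor substrate, was at 0.04 and 0.08 FPKM without Flag-OGT and at 140 and 142 FPKM with it. IGFBP4, a binding protein of IGFs, fell from 251 and 233 FPKM to 0.62 and 0.44 FPKM, whereas IGFBP5 was at 0.03 and 0.02 FPKM against 9.21 and 9.36 FPKM.

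Notch and Wnt pathway genes were higher in 30 of 48 tested and lower in 15 (median 0.72). LEF1, a transcription factor at the end of the Wnt pathway, was listed at 0 in both controls, and at 22.4 and 23.6 FPKM in the Flag-OGT cells. The secreted Wnt inhibitor DKK1 fell from 116 and 125 FPKM to 0.31 and 0.23 FPKM. NOTCH3, a receptor, rose from 0.07 and 0.04 FPKM to 22.0 and 22.1 FPKM and HES4 from 8.99 and 7.84 FPKM to 172 and 162 FPKM, while the ligand JAG1 fell from 39.9 and 38.8 FPKM to 0.96 and 0.78 FPKM.

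Antigen presentation by MHC class I was lower in 17 of 23 tested genes and higher in 3 (median -1.03). B2M, the light chain shared by all class I molecules, fell from 460 and 549 FPKM to 89.1 and 89.5 FPKM, and PSMB8, a subunit of the immunoproteasome, from 4.92 and 5.49 FPKM to 0 and 0.09 FPKM. The risers were heavy chains: HLA-B went from 4.84 and 3.58 FPKM to 58.0 and 59.8 FPKM, HLA-C from 23.0 and 22.3 FPKM to 143 and 148 FPKM, and HLA-F from 1.67 and 1.96 FPKM to 8.71 and 8.09 FPKM. HLA genes are alike and variable in sequence, so these levels are uncertain. Genes that sense nucleic acids were lower in 15 of 21 tested and higher in 4 (median -1.19). OAS1, which makes the activator of RNase L, fell from 87.4 and 84.9 FPKM to 0 and 0.08 FPKM, OAS3 from 25.1 and 26.1 FPKM to 0.11 FPKM in both, and IFI16, a DNA sensor, from 18.0 and 19.4 FPKM to 0.02 and 0 FPKM. NLRX1, a mitochondrial member of the NOD-like receptor family, went the opposite way, from 5.23 and 4.35 FPKM to 15.01 and 14.66 FPKM.

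Of 24 G1 genes, 9 were higher and 11 lower, and the D-type cyclins moved in different directions. CCND1 fell from 68.3 and 64.5 FPKM to 19.2 and 19.1 FPKM and CCND3 from 128 and 121 FPKM to 27.6 and 27.9 FPKM, while CCND2 rose from 0 and 0.02 FPKM to 19.77 and 19.02 FPKM. CDKN2A, which encodes p16 and ARF, rose from 99.0 and 85.0 FPKM to 377 and 375 FPKM.

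DNA replication genes were all tested, and 30 of 45 were higher, 6 lower and 14 at least 2-fold higher (median 0.67). CDT1, which loads the replicative helicase, rose from 57.0 and 47.2 FPKM to 228 and 231 FPKM and CDC45, a part of that helicase, from 21.6 and 24.6 FPKM to 95.9 and 94.0 FPKM. ORC5, of the origin recognition complex, fell from 34.4 and 37.4 FPKM to 12.2 and 11.7 FPKM. Of 15 tested MYC family members and partners, 11 were higher and 3 lower. MYCL rose from 0.14 and 0.06 FPKM to 5.99 and 6.70 FPKM, and the MYC antagonist MXD4 from 9.38 and 7.90 FPKM to 59.8 and 57.3 FPKM, while MXD1, of the same family, fell from 8.30 and 9.05 FPKM to 1.31 and 1.43 FPKM. The smallest call among them, MLXIP, at 25.6 and 24.1 FPKM against 21.9 and 22.6 FPKM, had an adjusted p of 0.0278 that rose to 0.116 without control library 1, to 0.149 without Flag-OGT library 1, to 0.064 without Flag-OGT library 2 and to 0.0604 in a fit of the 4 MHCC-97H libraries alone.

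Among 16 tested DNA methylation genes, 8 were higher and 6 lower, near the 49.3% and 36.7% of all tested genes. MGMT, which repairs alkylated guanine, went from 21.0 and 23.0 FPKM to 0 in both Flag-OGT libraries. The de novo methyltransferases rose, DNMT3B from 3.92 and 4 FPKM to 17.7 and 16.9 FPKM and DNMT3A from 1.08 and 0.69 FPKM to 5.39 and 5.90 FPKM, and the demethylating enzyme TET1 rose from 0.15 and 0.14 FPKM to 2.58 and 2.52 FPKM.

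Respiratory chain subunits were higher in 45 of 74 tested genes and lower in 20, and 18 were at least 2-fold higher, a share close to the 23.2% of all tested genes, and 1 at least 2-fold lower (median 0.48). NDUFA7, a subunit of complex I, rose from 49.95 and 40.8 FPKM to 199 and 192 FPKM, and UQCRC1, of complex III, from 71.1 and 63.1 FPKM to 252 and 249 FPKM. The fall of at least 2-fold was NDUFV2, also of complex I, from 140 and 148 FPKM to 58.4 and 63.5 FPKM. Mitochondrial ribosomal protein genes had a median of 0.16, near that of all genes. Of 77, 39 were higher and 26 lower, beside 49.3% and 36.7% of all tested genes. Proteasome subunits were lower in 22 of 31 genes and higher in 3 (median -0.47). Of these, 2 falls and none of the rises reached 2-fold. PSMC2 and PSMC4, ATPases of the regulatory particle, fell furthest, PSMC2 from 63.8 and 73.1 FPKM to 17.4 and 17.5 FPKM and PSMC4 from 202 and 187 FPKM to 66.8 and 65.1 FPKM.

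Some genes under allele-specific or germline silencing changed by large steps, while others stayed under the level filter. Of 18 imprinted genes tested of 26, 11 were lower and 6 higher. The 8 that were not tested stayed at or under 0.59 FPKM in every library of MHCC-97H. SNRPN and SNURF, which share a transcript, fell together, SNRPN from 30.5 and 29.6 FPKM to 0.05 and 0.06 FPKM, and PHLDA2 fell from 265 and 199 FPKM to 4.62 and 5.72 FPKM. PLAGL1, a zinc finger factor, rose from 0.02 and 0.05 FPKM to 33.2 and 32.3 FPKM. Of 11 tested cancer-testis genes of 44, 9 were at least 2-fold lower and 2 at least 2-fold higher, beside 16.5% and 23.2% of all tested genes. The 33 that were not tested stayed at or under 1.07 FPKM in every library of MHCC-97H. MAGEA3 was at 42.5 and 42.4 FPKM against 0 and 0.03 FPKM and SPANXA1 at 91.6 and 98.2 FPKM against 0.06 and 0 FPKM, a value that its copy SPANXA2 shares in every library. PRAME was at 0 and 0.03 FPKM without Flag-OGT and at 24.2 and 22.8 FPKM with it.

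Some well-expressed genes held their level in the deposited FPKM. Among genes of at least 50 FPKM on average, the 6 with the smallest changes were DDX54, AP2M1, RAB1B, CANX, ATP5MG and C12orf10. AP2M1, of the clathrin adaptor, was at 208 and 205 FPKM against 206 and 207 FPKM, with a 95% interval of the log2 change from -0.10 to 0.11. CANX, the chaperone calnexin, was at 122 and 135 FPKM against 129 and 127 FPKM (interval -0.15 to 0.14), and ATP5MG, of ATP synthase, at 86.4 and 100.7 FPKM against 97.4 and 88.8 FPKM (interval -0.18 to 0.17). With median-of-ratios scaling each of the 6 was called lower, by 0.20 to 0.21 log2 units, and with quantile normalization AP2M1 was called higher, by 0.12. With FPKM rescaled to a common sum none of the 6 was called, and the log2 change of each was below 0.

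Set beside MHCC-97L, most of the change was shared in direction. Of the 5246 genes at least 2-fold changed in MHCC-97H and the 4552 in MHCC-97L, 3560 changed by at least 2-fold in the same direction in both, 67.9% of the first and 78.2% of the second, and 19 changed in opposite directions. The 2 contrasts use separate control libraries. The size of the change differed between lines, by the test of the difference itself (limma, adjusted p under 0.05), in 8407 genes (63.7%). OGT was among them: it was at 45.7 and 43.9 FPKM in MHCC-97L controls, and at 51.0 and 54.5 FPKM in the Flag-OGT cells there, and its change was 0.57 ± 0.08 (SE) log2 units larger in MHCC-97H (adjusted p = 0.00018).

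Among genes at least 2-fold changed in MHCC-97H, the largest differences upward were in BHMG1 and SH3BGR, which rose in MHCC-97H and hardly moved in MHCC-97L. BHMG1 stayed at 0.12 and 0.09 FPKM in MHCC-97L controls and 0.35 and 0.36 FPKM with Flag-OGT, so that its change differed by 7.17 ± 0.09 (SE; adjusted p = 1.3e-10). SH3BGR, of heart and muscle, rose from 0.79 and 0.55 FPKM to 76.5 and 76.0 FPKM in MHCC-97H and was at 1.84 and 1.62 FPKM against 1.99 and 1.93 FPKM in MHCC-97L, a difference of 5.42 ± 0.12 (SE; adjusted p = 3.4e-09). Of the neighbours of BHMG1 on chromosome 19, FBXO46, on one side, rose from 13.5 and 10.4 FPKM to 15.78 and 15.98 FPKM in MHCC-97H, a log2 change of 0.39 (adjusted p = 0.0040). SIX5, on the other side, was at 18.0 and 13.9 FPKM against 17.1 and 17.5 FPKM (adjusted p = 0.308), and DMPK, the next gene after it, rose from 14.7 and 13.3 FPKM to 22.1 and 24.0 FPKM, a log2 change of 0.68 (adjusted p = 6.1e-06). Next to SH3BGR on chromosome 21, LCA5L was at 0.24 and 0.46 FPKM against 0.20 and 0.29 FPKM and B3GALT5 at 0.86 and 0.88 FPKM against 0 and 0.04 FPKM. In MHCC-97L, DMPK also rose, from 17.7 and 18.3 FPKM to 38.7 and 36.1 FPKM. B3GALT5 fell there from 1.58 and 1.78 FPKM to 0 in both Flag-OGT libraries. Further out from BHMG1 in MHCC-97H, SNRPD2 was at 231 and 244 FPKM against 242 and 240 FPKM. QPCTL was at 23.6 and 20.0 FPKM against 19.6 and 19.3 FPKM, and DMWD at 22.4 and 20.5 FPKM against 22.1 and 21.7 FPKM. These neighbours were named after their values were seen.

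In PHGDH and ASS1 the difference came with a higher control level in MHCC-97L. PHGDH was at 38.6 and 40.4 FPKM in MHCC-97L controls, and at 406 and 380 FPKM in the Flag-OGT cells there, a change smaller by 5.05 ± 0.08 (SE) log2 units than in MHCC-97H. ASS1 was at 18.3 and 19.8 FPKM in those controls, and at 62.2 and 64.0 FPKM in the Flag-OGT cells, smaller by 4.65 ± 0.08 (SE). ADH1C, an alcohol dehydrogenase, was at 65.6 and 67.6 FPKM in MHCC-97L controls but at 1.74 and 1.42 FPKM in MHCC-97H controls, and it was at or near 0 with Flag-OGT in both lines. HTRA3, a secreted protease, was the one of these 12 that moved in opposite directions, from 0.43 and 0.26 FPKM to 3.93 and 4.51 FPKM in MHCC-97H and from 12.7 and 12.6 FPKM to 0.64 and 0.53 FPKM in MHCC-97L.

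The largest differences downward were falls from levels that MHCC-97L controls did not have. PTHLH, parathyroid hormone-like hormone, fell from 21.6 and 21.8 FPKM to 0.53 and 0.50 FPKM in MHCC-97H and was at 0.34 and 0.55 FPKM in MHCC-97L controls. CSAG1 fell from 47.2 and 49.2 FPKM and the cancer-testis gene MAGEA12 from 14.3 and 13.9 FPKM, both to 0, against 3.08 and 2.11 FPKM and 0.52 and 0.41 FPKM in MHCC-97L controls. SLC38A5, a glutamine transporter, fell from 28.4 and 29.7 FPKM, ANKRD1, a target of YAP, from 12.9 and 13.4 FPKM, and TNS4, of focal adhesions, from 9.10 and 8.26 FPKM, and all 3 stood under 0.5 FPKM with Flag-OGT in both lines. SLC7A3, an importer of arginine and lysine, named from the transporter list, was listed at 0 in all MHCC-97L libraries and in the MHCC-97H controls and was at 9.77 and 10.2 FPKM with Flag-OGT in MHCC-97H.

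**Figure D5:**
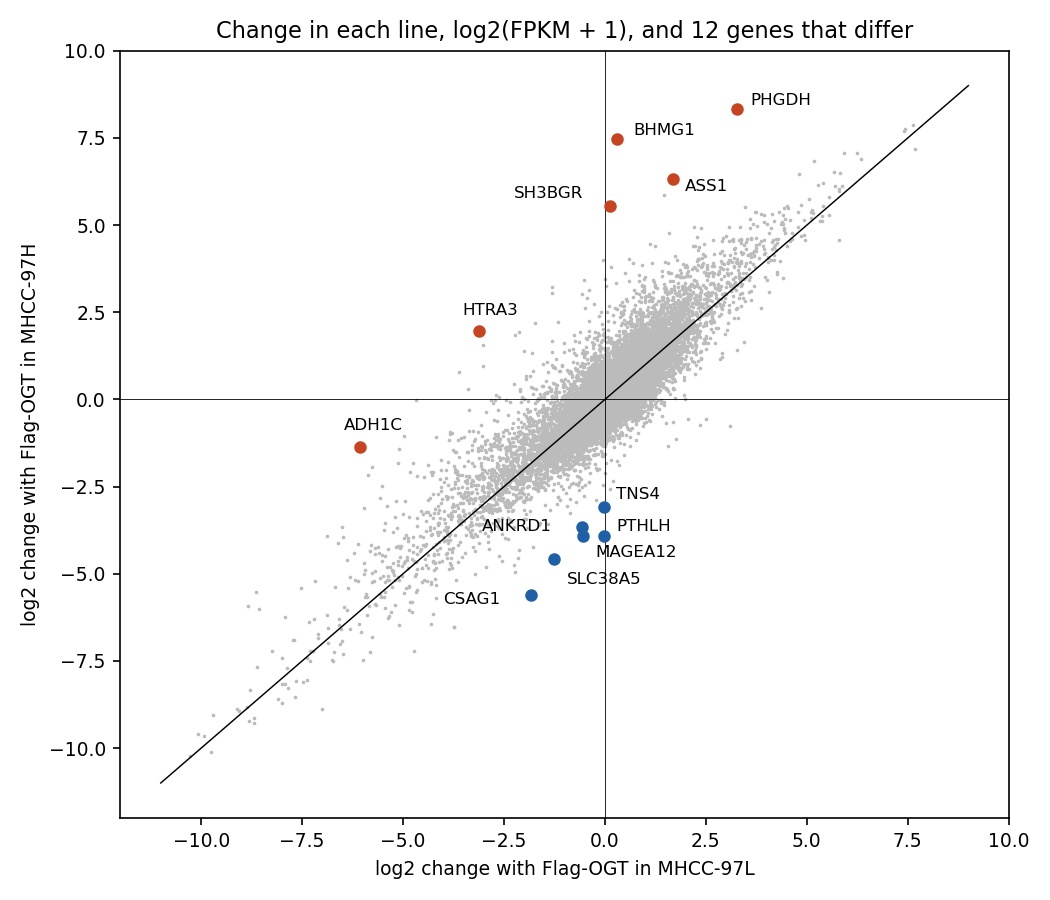
The log2 change with Flag-OGT of each tested gene in MHCC-97L (x axis) and in MHCC-97H (y axis), with the diagonal marking equal changes. Coloured points are the 6 genes in each direction with the largest called differences among genes at least 2-fold changed in MHCC-97H, red where the change in MHCC-97H is higher and blue where it is lower; BHMG1 and SH3BGR lie above 5 on the y axis and near 0 on the x axis.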

How the data were processed

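The table the authors deposited gives FPKM per gene symbol for 8 libraries. Listed tools are Bowtie2, HISAT2 2.1.0, RSEM 1.2.4, DESeq2 1.18.1 with the build hg19, per the submitters' processing notes, with no role or order. Which of them made the FPKM values, and with what strand setting, is not given in the sources. Values sum to 510449 to 532728 FPKM in the 4 libraries. Of 18928 features, 26 whose symbols had turned into dates (at most 0.1% of summed FPKM) were left out.

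Values were taken as log2(FPKM + 1), which understates the change of low genes. Group means of all 8 libraries were fitted with limma 3.58.1 in R with the prior variance following expression (4 residual degrees of freedom), and Benjamini-Hochberg adjustment ran over the 13203 genes tested. The difference between lines is a contrast of the same fit. Alternatives are given at the end. The named genes are the 12 largest changes each way, 8 genes present in 1 group alone each way, the members of each list that changed most (up to 3 each way), the O-GlcNAc genes, ZNF263, HNF4A, the cell type markers, 6 differences between lines each way and 6 steady genes. The members and lists were chosen with earlier results of these data known. Some of the genes and lists that the rule takes are not reported here; counts over lists include every tested member. The fragment depth was estimated from low values of genes with a single GENCODE v29 transcript under 1500 bases, and it limits the precision of values near 0.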

Additional observations from a re-analysis of the deposited data

Results flagged for a closer look

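The change with Flag-OGT differed between MHCC-97H and MHCC-97L in 8407 genes by limma's test of the difference itself. OGT was one of them, with a change 0.57 log2 units larger in MHCC-97H (adjusted p = 0.00018). Among genes at least 2-fold changed in MHCC-97H, the difference of the log2 change (MHCC-97H minus MHCC-97L) was largest in BHMG1 (7.17), SH3BGR (5.42), HTRA3 (5.06), PHGDH (5.05), ADH1C (4.69) and ASS1 (4.65). At the other end it was -3.88 in PTHLH, -3.79 in CSAG1, -3.37 in MAGEA12, -3.32 in SLC38A5, -3.09 in ANKRD1 and -3.05 in TNS4. With 2 libraries a group, no library was examined as standing apart within its group.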

How the results depend on the processing

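None of 13 alternatives moved the counts of genes higher, lower or at least 2-fold changed by over 1.5 times, and OGT stayed higher in each. Nor did any of the 12 run for the difference between lines, or of the 7 run for genes present in 1 group alone, move those counts by over 1.5 times. For genes present in 1 group alone, the filter of mean FPKM 2 could not change the count. Leaving out a library could only raise it, since the rule then covers fewer libraries. The log2 change of OGT was 0.60 (median-of-ratios scaling) to 0.83. Genes at least 2-fold higher ranged from 2449 with a filter of mean FPKM 2 to 3680 with a pseudocount of 0.1. With median-of-ratios scaling 5682 genes were higher and 5668 lower. Of 1196 list counts under an alternative, 35 moved by over 1.5 times. Cytochrome P450 genes at least 2-fold higher went from 5 to 11 with a pseudocount of 0.1 and to 2 with a filter of mean FPKM 2, liver transcription factors at least 2-fold higher from 3 to 5 with a pseudocount of 0.1, cancer-testis genes at least 2-fold higher from 2 to 1 with a filter of mean FPKM 2, and respiratory chain subunits at least 2-fold lower from 1 to 2 with median-of-ratios scaling. The medians of cytochrome P450 genes (quantile normalization), glycolysis, DNA methylation and mitochondrial ribosomal protein genes (median-of-ratios scaling) turned negative. The labels link same-numbered libraries by a number alone and do not say if they were prepared together. Their deviations correlated at -0.03, and a replicate block gave 6496 genes higher and 4835 lower. Of 3664 values of named genes, 9 lost their call (in ASGR1, EOGT, MLXIP and SOX9) and 8 gained one. With median-of-ratios scaling 4 genes that were not called turned from a change near 0 to a called fall, with log2 changes of -0.20 in AP2M1, C12orf10 and DDX54 and -0.17 in ZNF263. The cause was not tested. On a transcript of 2 kb, values under about 0.076 FPKM cannot be told from 0.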
